A study of Solanum lycopersicum with 4 samples.

Results

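The transcripts described here belong to the early part of the flavonoid pathway of tomato (Solanum lycopersicum) and to its flavonol branch. They comprise 6 enzyme genes, namely CHS1 (Solyc09g091510), CHS2 (Solyc05g053550), CHI (Solyc05g010320), F3H (Solyc02g083860), F3'H (Solyc03g115220) and FLS (Solyc11g013110), and the regulator gene MYB12 (Solyc01g079620). These 7 genes were picked by gene ID for their place in the pathway, out of 33976 transcripts with 1 transcript per ID. The selection rule uses no measured value, although earlier results of these data were known when it was made. All 7 were quantified and all 7 passed the low-count filter, which left 18385 genes to test. A RefSeq gene table holds the symbols of 6 of them on the matching chromosome and near the matching position in the gene order. FLS is not among its symbols, so that name rests on published nomenclature alone.

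RNA was sequenced from floral apices and closed flower buds in 4 libraries. Of these, 2 came from 156OE plants, which are MT plants that overexpress the microRNA miR156, and 2 from MT plants without the overexpression. MT usually stands for Micro-Tom, a dwarf cultivar, which is the background of both genotypes. Neither the promoter of the transgene, nor the number of lines, nor the age of the plants is given in the labels. The replicates are described as RNA replicates, without a statement that different plants were used for each; the p-values therefore reflect the spread among these libraries, which may be technical.

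Flavonoids are made from the phenylpropanoid p-coumaroyl-CoA. Chalcone synthase (CHS) joins it with malonyl-CoA to naringenin chalcone, chalcone isomerase (CHI) closes the ring to naringenin, and flavanone 3-hydroxylase (F3H) makes the first dihydroflavonol. Flavonoid 3'-hydroxylase (F3'H) adds a hydroxyl group to the B-ring, which sets the quercetin type apart from the kaempferol type. Flavonol synthase (FLS) turns dihydroflavonols into flavonols, while the late enzymes compete for the same substrates to make anthocyanins. MYB12 is an R2R3-MYB activator of the early genes, and tomato plants without its function have a colourless fruit peel. In flowers, flavonols are known from petals, anthers and pollen.

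The libraries were unequal in depth and likeness. Assigned reads numbered 8440384 and 1685657 in 156OE replicates 1 and 2, and 11203505 and 9369713 in MT replicates 1 and 2. Log2 CPM values (CPM being reads per 1000000 assigned reads) correlated across genes at 0.918 between the 156OE libraries and at 0.987 between the MT libraries. Between the replicates, 11.9% of tested genes differed more than 2-fold in 156OE and 0.963% did in MT. The 156OE libraries also differed from each other in markers, in part on opposite sides of MT. The summed level of the petal and stamen genes TAP3, TM6 and TPI was 124 and 46.3 CPM in 156OE, against 67.7 and 73.5 CPM in MT. In 156OE replicate 2 most of it came from TM6, at 39.7 CPM, against 44.2 and 41.9 CPM in MT. There TAP3 had 3.56 CPM on 6 reads, against 13.1 and 17.7 CPM in MT. TPI had 2.97 CPM on 5 reads, against 10.4 and 13.9 CPM in MT. The carpel and stamen genes TAG1 and TAGL1 summed to 26.7 and 4.17 CPM in 156OE and 13.3 and 14.2 CPM in MT. The summed jasmonate genes TD2, AOC, AOS, JAZ2 and LOXD reached 904 and 2399.8 CPM in 156OE, against 592 and 568 CPM in MT. LOXD made up much of these sums, at 363 and 1301 CPM in 156OE and 391 and 401 CPM in MT. Its 156OE replicate 1 thus stood below both MT libraries. TD2 had 122 and 65.3 CPM in 156OE, against 9.55 and 6.62 CPM in MT. It was lower in 156OE replicate 2 than in replicate 1, while AOC, AOS, JAZ2 and LOXD were higher. The green tissue genes RBCS3 and RBCS1 summed to 354 and 531 CPM in 156OE, against 208 and 206 CPM in MT, but they did not move alike. RBCS3 had 233 and 472 CPM in 156OE, against 136 and 131 CPM in MT. RBCS1 had 120 and 59.3 CPM in 156OE, against 71.5 and 74.2 CPM in MT, so its 156OE libraries stood on either side of MT. The floral regulator genes FA, AN, WUS and CLV3 had reads in all 4 libraries and summed to 178 and 107 CPM in 156OE and 228 and 200.2 CPM in MT. Within that list FA had 66.5 and 41.2 CPM in 156OE, against 118 and 102 CPM in MT (log2 change -0.92, edgeR unadjusted p = 0.00529, adjusted p = 0.295). The rest of the list did not follow FA. AN, WUS and CLV3 had overlapping CPM values, with log2 changes of -0.16, -0.11 and 0.33. AN had 93.3 and 48.1 CPM in 156OE, against 87.6 and 82.3 CPM in MT. Of the pollen genes, LAT52 had no read in 3 libraries, among them both 156OE libraries, and LAT56 had 1.66 and 1.19 CPM in 156OE, against 6.16 and 4.59 CPM in MT (log2 change -1.76, edgeR unadjusted p = 0.00595, adjusted p = 0.302), with 2 reads in 156OE replicate 2. The part of these marker differences in the flavonoid values was not tested. In bulk tissue, fewer cells of a type and less RNA per cell cannot be told apart. SBP3 (Solyc10g009080), of the SBP-box family that miR156 targets, had 8.29 and 2.37 CPM in 156OE and 28.3 and 23.2 CPM in MT. CNR (Solyc02g077920), of the same family, had 4.74 CPM and no read (floor 1.78 CPM) in 156OE, against 4.73 and 6.62 CPM in MT, so its 156OE replicate 1 did not stand below MT.

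None of the 7 genes passed the threshold between the genotypes when all 4 libraries were used. The genes higher in both 156OE libraries than in both MT libraries were CHS1, CHI and F3H, and F3'H was lower in both. CHS2, FLS and MYB12 had overlapping libraries. Fitted log2 changes of 156OE over MT were between -0.49 for F3'H and 1.10 for CHS1, with a median of 0.47 over the 7 genes and 0.01 over all tested genes. At a Benjamini-Hochberg adjusted p of 0.05, edgeR called 0 of the 7 and 0.00544% of all tested genes, and DESeq2 called 0 of the 7 and 1.01% of the genes to which it gave an adjusted p. At an unadjusted p under 0.05, edgeR placed 1 of the 7, CHI, against 11.4% of all tested genes, and DESeq2 placed 2, CHS1 and CHI, against 5.9%. Libraries that do not overlap were common: 22.7% of tested genes had both 156OE libraries above both MT libraries and 23.8% had both below, which is to be set beside 3 and 1 of the 7 genes.

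**Figure D1:**
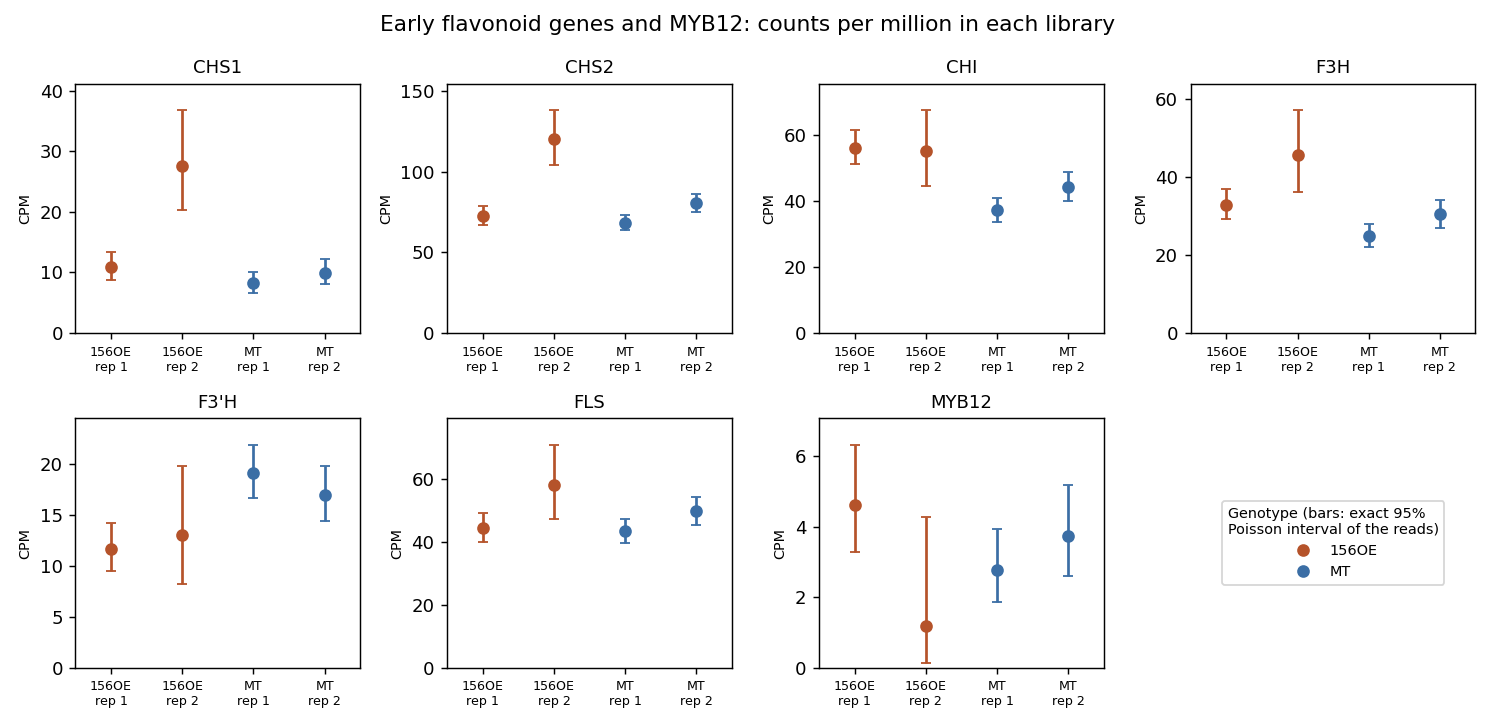
Read level in CPM of the 6 enzyme genes and MYB12 in each of the 4 libraries, with exact 95% Poisson intervals of the reads, which cover counting error only; each panel has its own axis from 0. CHI is above both MT libraries in both 156OE libraries at nearly equal levels, F3'H is below them in both, and CHS1 and CHS2 stand highest in 156OE replicate 2.

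The chalcone synthase genes, which carry out the entry step, differed in how far they stood from MT. CHS1 had 10.9 and 27.6 CPM in 156OE replicates 1 and 2, and 8.22 and 9.93 CPM in MT replicates 1 and 2. The replicate 1 value of 156OE was thus close to MT, and the replicate 2 value, from 46.5 estimated reads, was 3.04 times the MT mean. The fitted log2 change was 1.10 ± 0.52 (SE; 95% interval -0.24 to 2.43; edgeR adjusted p = 0.484). CHS2 had 72.9 and 120 CPM in 156OE and 68.5 and 80.5 CPM in MT, so that 156OE replicate 1 lay between the MT libraries. Its log2 change was 0.47 ± 0.31 (SE; 95% interval -0.32 to 1.25; edgeR adjusted p = 0.584).

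How far both CHS genes depart from MT was set by 156OE replicate 2. Without 156OE replicate 1, which leaves replicate 2 as the lone 156OE library and assumes that it varies like the MT pair, edgeR called CHS1 higher at a log2 change of 1.81 (adjusted p = 0.00117) and CHS2 higher at 0.88 (adjusted p = 0.00356). Without 156OE replicate 2 the changes were 0.28 (edgeR adjusted p = 0.57) and -0.021 (edgeR adjusted p = 0.961). The ratio of replicate 2 to replicate 1 in 156OE was 2.56 for CHS1 (exact 95% interval 1.76 to 3.67, counting error only) and 1.65 for CHS2 (1.40 to 1.94). In MT it was 1.21 for CHS1 (0.896 to 1.63) and 1.18 for CHS2 (1.06 to 1.30). Among all tested genes the 156OE ratio of CHS1 stood at percentile 96.5 and that of CHS2 at percentile 92.7.

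CHS2 supplied most of the CHS transcript in every library. CHS1 took 13.0% of the CHS reads in 156OE replicate 1 (92 of 708, exact Clopper-Pearson 95% interval 10.6% to 15.7%) and 18.8% in replicate 2 (47 of 250, 14.2% to 24.2%). In MT it took 10.7% (92 of 859, 8.72% to 13.0%) and 11.0% (93 of 847, 8.95% to 13.3%). The share was above both MT values in both 156OE libraries, but the interval of 156OE replicate 1 overlaps those of MT. The share is given as a description, with no test; an exact permutation test over 2 libraries against 2 has 0.33 as its smallest p. The genes are paralogs and the quantifier divides reads that fit both, so their split is less certain than their sum. Summed to a single row, they differed by 0.57 ± 0.34 on the log2 scale (SE; edgeR adjusted p = 0.548).

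CHI, the next enzyme, was the steadiest of the genes with higher values. It had 56.3 and 55.2 CPM in 156OE, against 37.3 and 44.3 CPM in MT. Both 156OE libraries lay above both MT libraries, and their counts agree within sampling noise at a replicate ratio of 0.98 (exact 95% interval 0.776 to 1.23). The log2 change was 0.54 ± 0.14 (SE; 95% interval 0.18 to 0.91), with an unadjusted edgeR p of 0.0122 and an adjusted p of 0.345. CHI ranked 652 of 18385 genes by p. Leaving out each library in turn gave edgeR log2 changes between 0.42 and 0.67, none of them called.

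F3H, which makes the dihydroflavonol that both branches use, had 32.9 and 45.7 CPM in 156OE and 24.9 and 30.5 CPM in MT. The 156OE libraries lay above the MT libraries, with 156OE replicate 1 only just above MT replicate 2. The log2 change was 0.57 ± 0.25 (SE; 95% interval -0.07 to 1.22; edgeR adjusted p = 0.466). It was 0.91 without 156OE replicate 1, where edgeR called it higher (adjusted p = 0.0209), and 0.26 without 156OE replicate 2 (edgeR adjusted p = 0.441).

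In all, 3 of the 7 genes were called in edgeR with 156OE replicate 2 as the lone 156OE library, all of them higher, where 8.16% of tested genes were called higher and 10.6% in either direction. With 156OE replicate 1 as the lone 156OE library, edgeR called 0 of the 7, against 5.73% of tested genes. At an unadjusted p under 0.05 it placed 2 of the 7, against 19.5% of tested genes. DESeq2 called 2 of the 7 in the first case, against 4.8% of genes with an adjusted p, and 0 in the second, against 1.41%. Both fits use the same MT libraries.

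**Figure D2:**
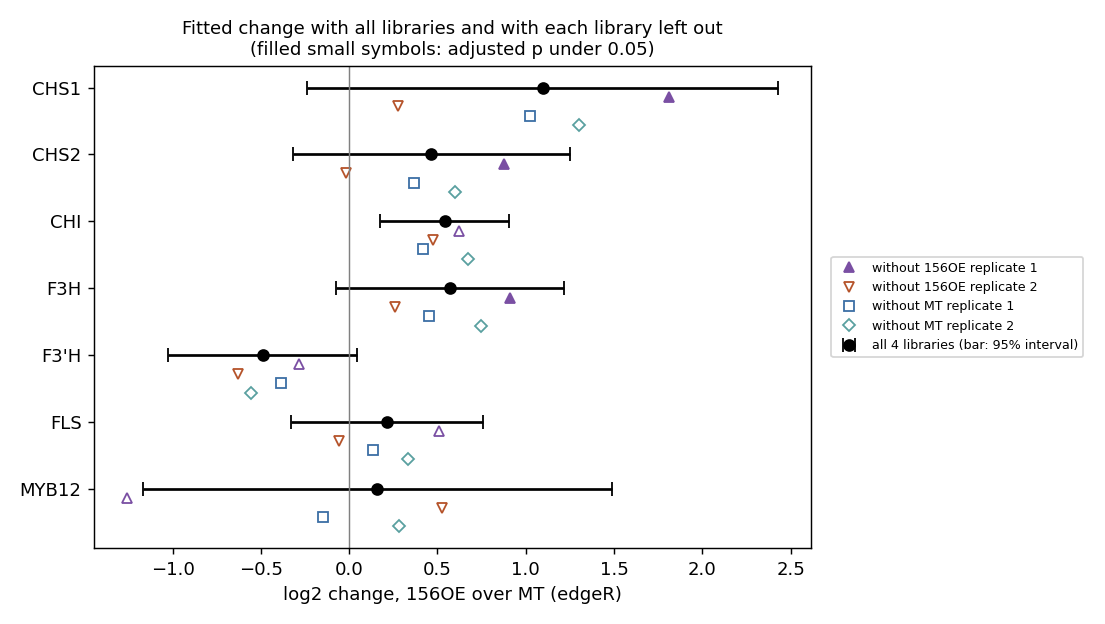
Fitted log2 change of 156OE over MT from edgeR for each gene, with all 4 libraries (black, with the 95% interval) and with each library left out (small symbols, filled where the adjusted p is under 0.05). The filled symbols are CHS1, CHS2 and F3H without 156OE replicate 1; the interval with all libraries lies above 0 for CHI alone, at 0.18 to 0.91.

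F3'H was the only one of the 7 genes with lower values in both 156OE libraries than in both MT libraries. It had 11.7 and 13.1 CPM in 156OE, against 19.1 and 17.0 CPM in MT, so 156OE replicate 1 was at 0.646 times and replicate 2 at 0.724 times the MT mean. The log2 change was -0.49 ± 0.21 (SE; 95% interval -1.02 to 0.04; edgeR unadjusted p = 0.0644, adjusted p = 0.455). In 156OE replicate 2 the value rests on 22 reads, and its exact 95% interval of 8.18 to 19.8 CPM takes in both MT values. Leaving out each library in turn gave edgeR log2 changes between -0.63 and -0.29, none of them called.

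FLS, the flavonol-forming enzyme, differed little. It had 44.4 and 58.1 CPM in 156OE and 43.4 and 49.7 CPM in MT, and the genotypes overlapped. The log2 change was 0.21 ± 0.21 (SE; 95% interval -0.33 to 0.76; edgeR adjusted p = 0.713). Leaving out 156OE replicate 1 gave 0.51 and leaving out 156OE replicate 2 gave -0.059, neither of them called.

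MYB12, the activator of these genes, was the least abundant. It had 4.62 and 1.19 CPM in 156OE and 2.77 and 3.74 CPM in MT. The 156OE libraries stood on either side of the MT libraries. The value of 156OE replicate 2 rests on 2 reads, under the floor of 3 reads or 1.78 CPM in that library, and its exact 95% interval runs from 0.144 to 4.29 CPM. The log2 change was 0.16 ± 0.52 (SE; 95% interval -1.17 to 1.49; edgeR adjusted p = 0.951), while the mean CPM was lower in 156OE, at 2.90 against 3.25 CPM in MT. The fit weights the deeper library more, so no direction can be given. In 156OE replicate 2, where CHS1, CHS2 and F3H stood highest, MYB12 had its lowest value, on those 2 reads.

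TPM values, deposited abundances scaled for transcript length, allow the genes to be set in order. In 156OE the mean levels were 78.1 ± 25.6 TPM for CHS2, 71.5 ± 2.61 for CHI, 35.2 ± 5.97 for FLS, 34.6 ± 7.25 for F3H, 15.2 ± 9.07 for CHS1, 7.78 ± 0.464 for F3'H and 2.82 ± 2.40 for MYB12 (SD, n = 2). In MT they were 64.1 ± 7.90 TPM for CHS2, 55.3 ± 7.46 for CHI, 34.1 ± 3.60 for FLS, 25.9 ± 3.94 for F3H, 12.1 ± 0.906 for F3'H, 7.65 ± 1.09 for CHS1 and 3.32 ± 0.734 for MYB12 (SD, n = 2). The ranges of 1 SD around the means overlapped for CHS2 and CHI in both genotypes, and in 156OE also for FLS and F3H and for CHS1 and F3'H. Within libraries, CHS2 was at 0.819 and 1.38 times the TPM of CHI in 156OE and at 1.17 and 1.15 times in MT. The order was the same in both genotypes apart from CHS1 and F3'H. CHS1 was above F3'H in both 156OE libraries, at 8.79 and 21.6 TPM for CHS1 and 7.45 and 8.10 TPM for F3'H. It was below F3'H in both MT libraries, at 6.88 and 8.42 TPM for CHS1 and 12.7 and 11.4 TPM for F3'H.

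Ratios between enzymes within a library do not depend on how libraries are scaled to each other. The 6 enzymes summed to 210.01 and 275 TPM in 156OE and to 183 and 215 TPM in MT. Of that sum, F3'H made up 3.55% and 2.95% in 156OE, against 6.95% and 5.30% in MT, and FLS made up 14.8% and 14.4% in 156OE, against 17.2% and 17.0% in MT. F3'H thus stood at 0.253 and 0.204 times the TPM of F3H in 156OE and at 0.549 and 0.398 times in MT, and FLS at 1.05 and 0.995 times in 156OE and 1.36 and 1.28 times in MT. A lower ratio to F3H in both 156OE libraries was the rule rather than the exception, since 58.3% of tested genes with a TPM above 0 in every library had one.

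**Figure D3:**
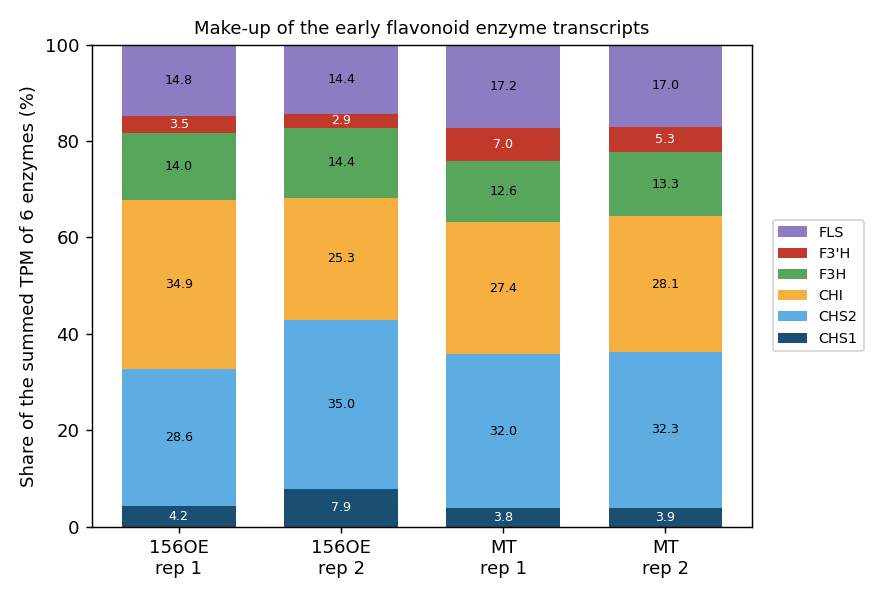
Share of each enzyme in the summed TPM of the 6 early flavonoid and flavonol enzymes, in percent, for each of the 4 libraries. F3'H takes 3.55% and 2.95% in the 156OE libraries against 6.95% and 5.30% in the MT libraries, and the CHS1 share is largest in 156OE replicate 2, at 7.87%.

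Genes around the early pathway gave no call either when all 4 libraries were used. Of 42 listed IDs, 18 had a symbol that the RefSeq table places where the ID does, and 15 of these were tested. In edgeR 0 of the 15 passed the threshold, against 0.00544% of all tested genes, and 4 had an unadjusted p under 0.05, against 11.4%. The median log2 change of the 15 was 0.07, against 0.01 over all tested genes. DESeq2 also called 0 of the 15, against 1.01% of the genes to which it gave an adjusted p. In the phenylpropanoid entry, PAL3 (Solyc09g007920), a phenylalanine ammonia-lyase gene, had 2678 and 2698 CPM in 156OE and 2016 and 2246 CPM in MT (log2 change 0.43 ± 0.18, SE; edgeR adjusted p = 0.446). Its tandem neighbour PAL5 (Solyc09g007910) had 98.3 and 409 CPM in 156OE and 121 and 131 CPM in MT (edgeR adjusted p = 0.56), so that only 156OE replicate 2 stood above MT. Reads of such close copies may be divided wrongly. 4CL (Solyc03g117870), which makes the coenzyme A ester that CHS uses, had 268 and 222 CPM in 156OE and 254 and 256 CPM in MT.

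Of 9 listed late anthocyanin genes, 3 passed the symbol check and were tested. All 3 had both 156OE libraries above both MT libraries, as did 22.7% of all tested genes. F3'5'H (Solyc11g066580), the B-ring hydroxylase of the delphinidin type, had 10.1 and 14.8 CPM in 156OE and 5.36 and 5.89 CPM in MT (log2 change 1.19 ± 0.33, SE; edgeR adjusted p = 0.355). DFR (Solyc02g085020), which draws dihydroflavonols towards anthocyanins, had 32.0 and 48.9 CPM in 156OE and 15.8 and 21.3 CPM in MT (log2 change 1.19 ± 0.31, SE; edgeR adjusted p = 0.343). ANS (Solyc08g080040), which acts after DFR, had 22.7 and 32.6 CPM in 156OE and 9.997 and 13.4 CPM in MT (log2 change 1.30 ± 0.30, SE; edgeR adjusted p = 0.31). HQT (Solyc07g005760), of the chlorogenate branch, had 26.3 and 23.1 CPM in 156OE and 43.6 and 34.7 CPM in MT (log2 change -0.57 ± 0.17, SE; edgeR adjusted p = 0.368).

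Among 7 tested regulators apart from MYB12, the lowest p belonged to HY5, DET1 and DDB1. HY5 (Solyc08g061130), a bZIP activator of light responses, had 12.1 and 9.49 CPM in 156OE and 14.5 and 17.3 CPM in MT (log2 change -0.45 ± 0.21, SE; edgeR adjusted p = 0.476). DET1 (Solyc01g056340), a repressor of light responses known from the high-pigment mutants, had 20.7 and 15.4 CPM in 156OE and 25.4 and 24.4 CPM in MT (edgeR adjusted p = 0.479). DDB1 (Solyc02g021650), which acts with DET1, had 138 and 135 CPM in 156OE and 159 and 174 CPM in MT (edgeR adjusted p = 0.574). These 3, which were picked by p, had lower values in both 156OE libraries than in both MT libraries. AN2, JAF13, THM27 and COP1 overlapped. Of the 7 regulators 3 were thus lower and 0 higher, to be set beside 23.8% and 22.7% of all tested genes.

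**Figure D4:**
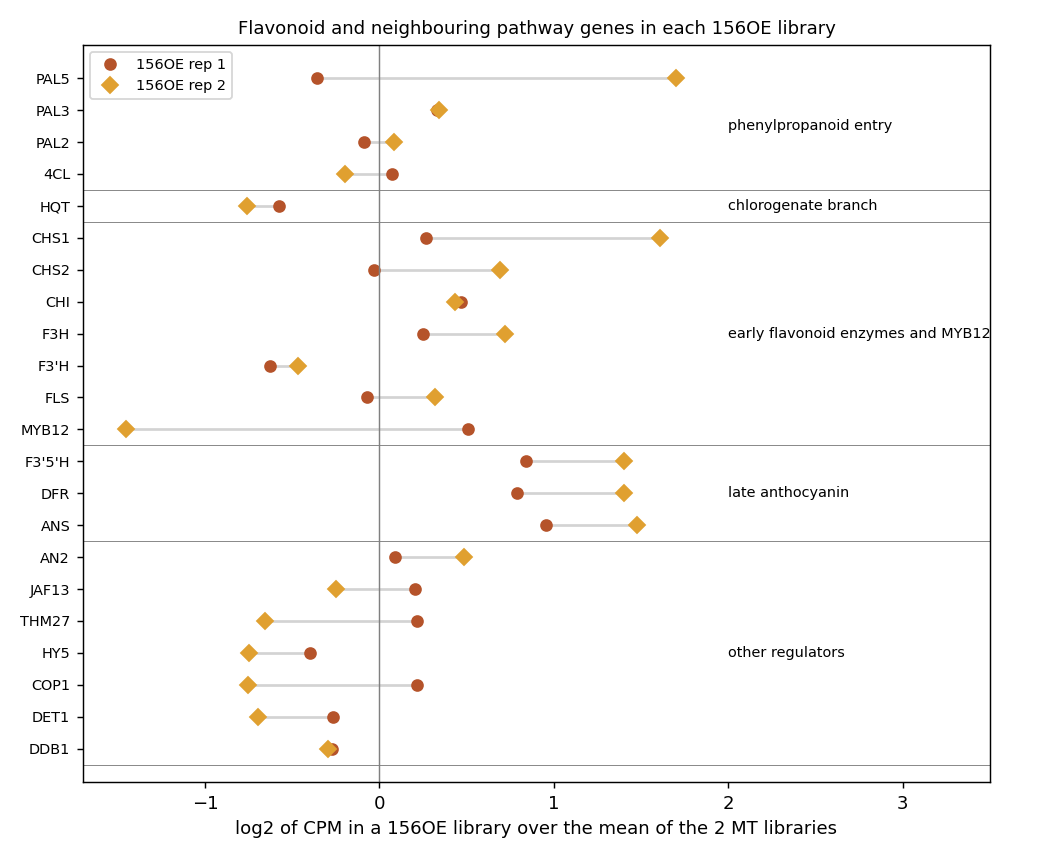
Log2 of the CPM in each 156OE library over the mean of the 2 MT libraries, for the tested genes of the pathway and its neighbours, with 156OE replicate 1 as circles and replicate 2 as diamonds. PAL5, CHS1 and MYB12 show the widest gaps between the 156OE libraries, and F3'5'H, DFR and ANS lie to the right of 0 in both.

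Centred on the MT mean, the median profile of the 6 enzymes was at 0.12 in 156OE replicate 1 and 0.75 in replicate 2 on the log2 scale. Of 34 other listed pathway, marker and SBP-box genes, the nearest to it over the 4 libraries were AN2 (Solyc10g086250), PAL3 and PAL2 (Solyc05g056170). Their root mean square distances were 0.10, 0.16 and 0.28, and AN2 is an R2R3-MYB gene of the anthocyanin type. AN2 had 2.26 and 2.97 CPM in 156OE and 1.79 and 2.45 CPM in MT, with 5 reads in 156OE replicate 2. Over 4 libraries such likeness is a description only.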

How the data were processed

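The authors deposited 1 Salmon table per library, with an estimated count (not normalized) and a TPM value per transcript, beside its length. The submitters' processing notes also name Trimmomatic, HISAT2, Picard and SAMtools; for versions, order, genome build and annotation, the sources used here give nothing. Estimated counts were rounded and tested with edgeR 4.0.16 in R 4.3.3 (two-sided quasi-likelihood F test after filterByExpr and TMM scaling, with genotype as the only term, Benjamini-Hochberg adjustment over 18385 genes at 0.05). Standard errors were derived from the unshrunk log2 change and its F statistic. CPM values use library totals, and overlap shares over all genes use TMM-scaled CPM. Alternatives used DESeq2 1.42.0, limma 3.58.1, other scalings and filters, a block and left-out libraries. The edgeR, DESeq2 and limma steps were tested on simulated data. Intervals and floors cover counting error only.

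The genes and lists were chosen with earlier results of these data known. IDs were paired with symbols from published nomenclature and checked against RefSeq (assembly SLM_r2.1; same chromosome, relative gene order within 0.03); IDs that failed are not described, except FLS, and this check cannot tell neighbouring genes apart. Named are all 7 genes, the 3 lowest p per list, and the 3 most similar profiles. No sequences were used here.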

Additional observations from a re-analysis of the deposited data

How the results depend on the processing

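With all 4 libraries, none of the 7 genes was called under any other scaling, filter, tool, length offset or block, where lowest adjusted p values lay between 0.293 and 0.634. CHS1, CHI, F3H and F3'H kept their direction in every alternative run. MYB12 reversed to -0.33 with limma on log2(TPM + 1), with and without the filter, to -0.51 with log2(TPM + 0.1) and to -0.060 with a crossed replicate block. In the limma fits with the filter the median of all genes shifted to -0.17 and -0.19. Leaving out 1 library in edgeR gave log2 changes from 0.28 to 1.81 for CHS1, from -0.021 to 0.88 for CHS2, from 0.26 to 0.91 for F3H, from -0.059 to 0.51 for FLS and from -1.26 to 0.52 for MYB12. CHS2 and FLS reversed without 156OE replicate 2 (also in DESeq2, at -0.026 and -0.065), and MYB12 reversed without 156OE replicate 1 (-1.28 in DESeq2) and without MT replicate 1 (-0.15); the cause was not tested. DESeq2 without 156OE replicate 1, added after seeing the data, called CHS1 at 1.79 and CHS2 at 0.86.

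Over all genes edgeR called 1 higher and 0 lower. The numbers were 57 and 28 with no low-count filter, 145 and 63 with DESeq2, 0 and 0 in the limma fits, 0 and 0 with the replicate block, 0 and 0 with the crossed block, and 0 to 1532 higher and 0 to 466 lower with 1 library left out. DESeq2 gave 804 and 119 without 156OE replicate 1 and 167 and 116 without 156OE replicate 2. With all 4 libraries, none of the 4 phenylpropanoid entry genes and none of the 3 late genes was called under any setting. When either 156OE replicate was left out, edgeR called members of both lists. DESeq2 did so only without 156OE replicate 1. Such fits rest on a lone 156OE library. Deviations of same-numbered libraries correlated at -0.25. With 2 libraries per genotype, this value cannot show whether libraries were paired. The crossed block was chosen after seeing the data. With the replicate block, log2 changes were 1.03 for CHS1, 0.43 for CHS2, 0.56 for CHI, 0.58 for F3H, -0.48 for F3'H, 0.22 for FLS and 0.020 for MYB12, none called. The depth of 156OE replicate 2 limits MYB12 and F3'H most.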
